A study of Homo sapiens with 40 samples.

Results

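The genes described here are type I interferon-stimulated genes, a set of 47 human genes named by symbol from what is known of the interferon response, of which 42 had a row among the 12655 genes counted. MX2, CMPK2, RSAD2, HERC5 and EPSTI1 were not analysed here. The study followed EGF receptor driven invasion and its response to cetuximab in FaDu, a line from a hypopharyngeal squamous cell carcinoma, and Kyse30, a line from an oesophageal squamous cell carcinoma. Both lines carried the photoconvertible fluorescent protein Dendra2 and grew as spheroids in type I collagen under serum-free medium for 72 h. Each line had 5 groups of 4 libraries: photoconverted invasive cells from spheroids given 9 nM EGF, spheroids given EGF and the MEK inhibitor AZD6244 at 100 nM, spheroids given EGF with 10 µg/mL cetuximab, non-invasive cells from spheroids given EGF alone, and spheroids kept without EGF. The labels call the MEK inhibitor, cetuximab and serum-free cells unselected, so a comparison of these with the non-invasive cells also compares unselected with sorted cells. The titles separate invasive from non-invasive cells, while another label gives both the same selection.

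Type I interferons bind a receptor made of IFNAR1 and IFNAR2, whose kinases JAK1 and TYK2 phosphorylate STAT proteins such as STAT2. With IRF9 these form a complex that binds the interferon-stimulated response element in promoters and switches on genes whose products sense foreign RNA, degrade it, block its translation or stop viruses at membranes. Type III interferons induce much the same genes through another receptor, and several members also respond to IRF1 or IRF3 without interferon. Epithelial tumour cells can express these genes at a basal level in the absence of infection. EGF activates the RAS, RAF, MEK and ERK cascade among others, cetuximab is a therapeutic antibody against the EGF receptor that keeps EGF from binding, and AZD6244 (selumetinib) inhibits MEK below the receptor.

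The response element was read in the RefSeq promoter table of GRCh38.p14, which held promoters for 37 of the 47 genes, 33 of them with counts. The element searched was GAAANNGAAA on either strand (TTTCNNTTTC on the reverse), within 250 bases before the start site. It occurred in 18 of these 33 promoters (54.5%), in 215 of 9812 promoters of all counted genes (2.19%) and in 839 of all 27305 promoters (3.07%). The STAT site TTCNNNGAA, which reads alike on both strands, occurred in 7 of the 33 (21.2%) and in 536 of the 9812 (5.46%). A match describes letters in the window, not a bound site. The following stretches belong to genes whose values carry the results below. They run 5′ to 3′ on the strand of the gene, with the matches to the response element in capitals and all other bases in lower case. Matches to the STAT site are not marked. ISG15 (chr1:1013365-1013424, plus strand) and BST2 (chr19:17405720-17405779, minus strand) held overlapping matches on 1 strand. IFIT1 (chr10:89392495-89392554, plus strand) and IFIT3 (chr10:89327841-89327909, plus strand) held a pair in reverse orientation. IFITM3 (chr11:320861-320920, minus strand) and IFI6 (chr1:27672251-27672310, minus strand) held separate forward matches, IFI27 (chr14:94110616-94110675, plus strand) held a reverse beside a forward match, and PARP14 (chr3:122680785-122680838, plus strand) held 1 match.
ISG15: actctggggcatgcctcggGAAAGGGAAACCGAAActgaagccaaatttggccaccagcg
BST2: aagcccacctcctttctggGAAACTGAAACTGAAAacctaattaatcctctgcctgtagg
IFIT1: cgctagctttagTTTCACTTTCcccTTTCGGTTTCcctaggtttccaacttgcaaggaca
IFIT3: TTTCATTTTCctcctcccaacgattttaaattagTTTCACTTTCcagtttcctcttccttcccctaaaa
IFITM3: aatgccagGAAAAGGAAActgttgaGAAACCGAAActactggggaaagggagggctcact
IFI6: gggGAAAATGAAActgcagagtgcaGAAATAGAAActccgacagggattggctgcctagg
IFI27: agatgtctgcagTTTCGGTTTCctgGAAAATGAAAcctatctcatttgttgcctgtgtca
PARP14: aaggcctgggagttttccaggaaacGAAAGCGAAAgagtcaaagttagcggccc
UBE2L6, SAMD9L, PARP9, DTX3L, STAT2, MX1 and OAS1 had no match to the response element in the same window, from which nothing follows about the factor that binds them.

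FaDu libraries totalled 2312126 to 5669262 counts. Replicate 1 of the Kyse30 invasive cells totalled 463124, and 27 of the 42 genes had a count in it, while the other Kyse30 libraries totalled 2538447 to 4534339. All 10 listed squamous epithelial markers were counted, with a summed level of 5370 to 9775 CPM (counts scaled to the library's size) in FaDu and 1707 to 4205 CPM in Kyse30. Of 10 leukocyte markers only CD68 was listed (0 to 10.9 CPM in FaDu, 0.321 to 53.7 CPM in Kyse30, with the highest value in the library of 463124 counts), and of 10 fibroblast and endothelial markers COL1A1 and CDH5, which summed to 3.36 to 27.8 CPM in FaDu and 0 to 41.7 CPM in Kyse30. A library of Kyse30 non-invasive cells stood apart: replicate 1 was the highest of its group for 40 of the 41 members detected there, against 26.6% of all genes. MALAT1, a nuclear RNA, took 6.27% of its counts, with 1.68%, 9.63% and 1.91% in replicates 2 to 4, and in replicate 3 the summed level of the members was not high. Kyse30 MEK inhibitor replicate 3 was the highest of its group for 39 of 41 members, against 24.7% of all genes. The part of library quality in these levels was not tested. In bulk RNA a lower level can mean fewer cells with a transcript or less of it per cell, and these cannot be told apart.

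**Figure D1:**
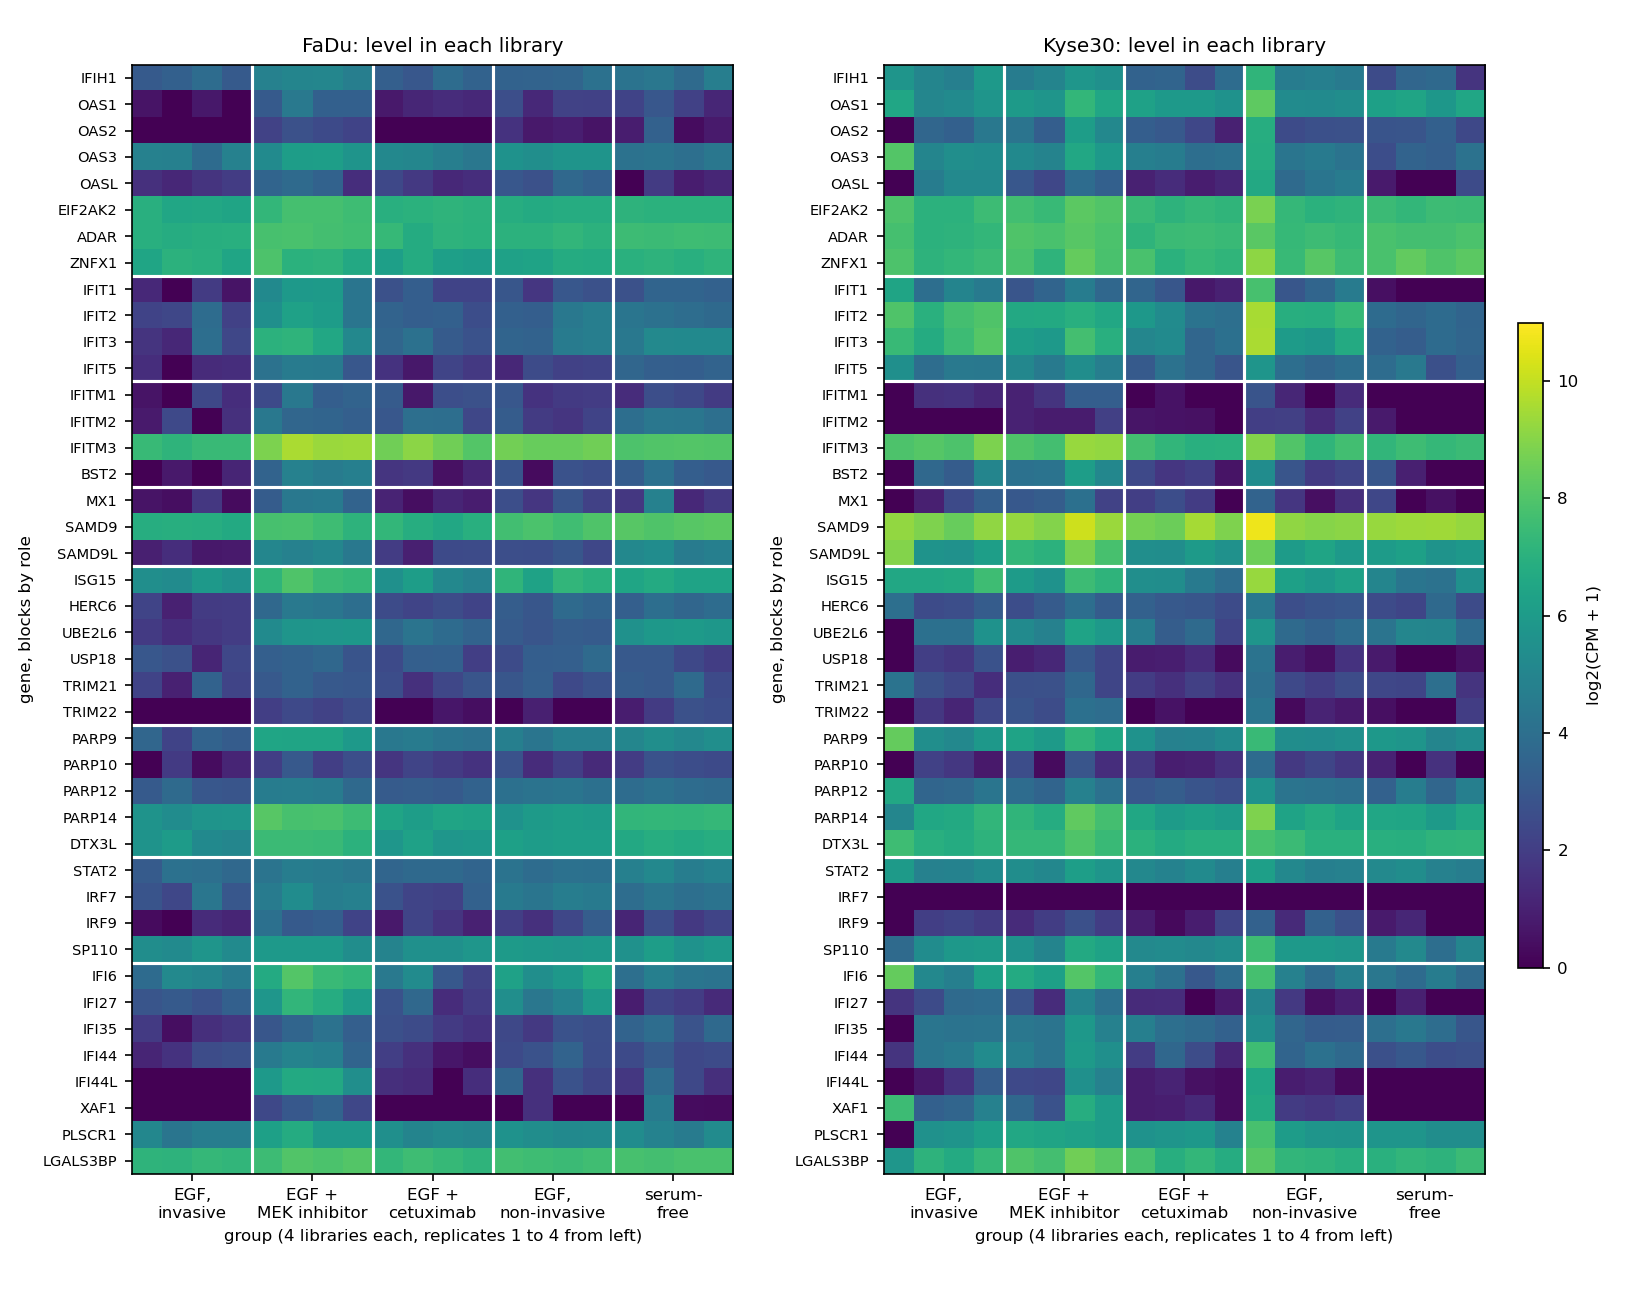
Heat map of log2(CPM + 1) for the 42 counted interferon-stimulated genes (rows, in blocks by role) in the 20 libraries of each line (columns, replicates 1 to 4 from the left within each group). In FaDu the MEK inhibitor columns are brightest across most rows, and in Kyse30 the columns of non-invasive replicate 1 and MEK inhibitor replicate 3 stand out.

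The level summed over the 42 genes in FaDu averaged 1101 ± 61.2 CPM in EGF invasive cells, 3381 ± 519 CPM with EGF and MEK inhibitor, 1486 ± 199 CPM with EGF and cetuximab, 1863 ± 137 CPM in EGF non-invasive cells and 2061 ± 87.5 CPM in serum-free spheroids (SD, n = 4 each). Invasive cells were lowest, at 1050 to 1189 CPM, and MEK inhibitor spheroids highest, at 2868 to 4046 CPM, with no other FaDu library inside either range. The cetuximab range, 1255 to 1732 CPM, overlapped that of the non-invasive cells, 1681 to 2012 CPM, which overlapped that of the serum-free spheroids, 1974 to 2168 CPM. In Kyse30 the invasive libraries held 4430, 2339, 2391 and 3564 CPM, the MEK inhibitor libraries 3211, 2649, 6297 and 4282 CPM, and the non-invasive libraries 9686, 2502, 2355 and 2404 CPM. Cetuximab libraries lay between 1721 and 2202 CPM and serum-free libraries between 2226 and 2436 CPM. The other 3 non-invasive Kyse30 libraries, at 2355 to 2502 CPM, overlapped the serum-free range. Such sums are set by the most abundant members.

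**Figure D2:**
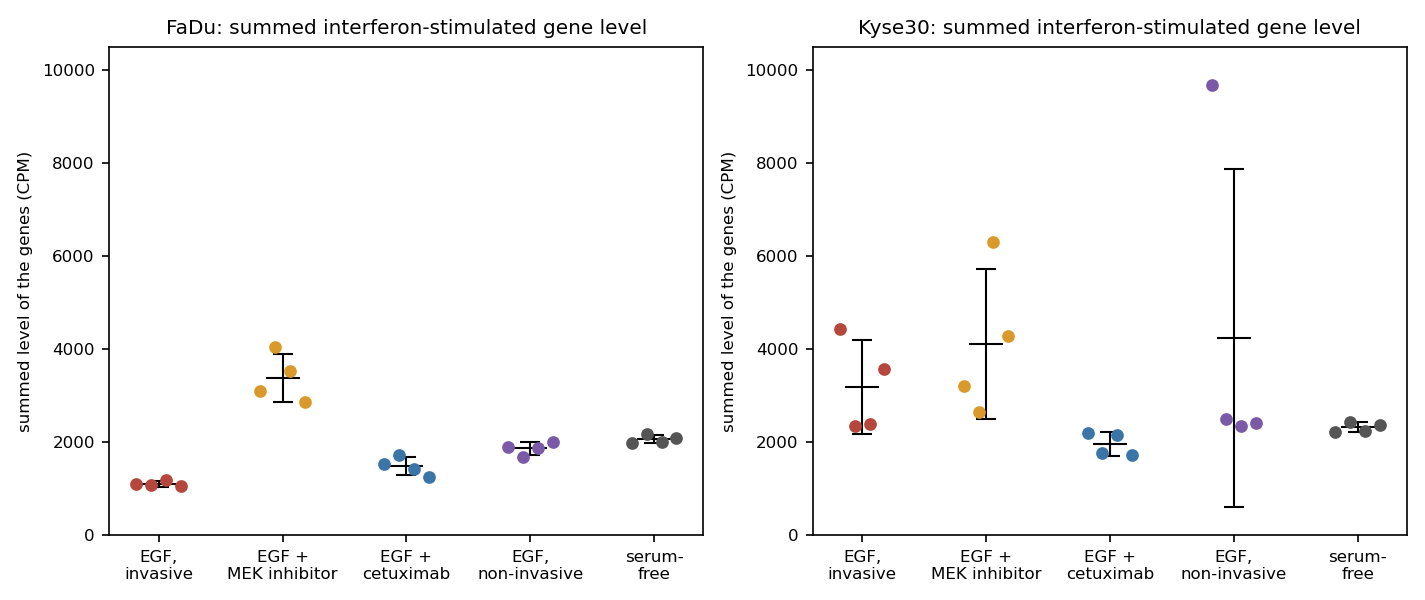
Summed CPM of the 42 interferon-stimulated genes in each library (points), with the mean ± SD of 4 libraries (bars), for FaDu and Kyse30. FaDu invasive cells (mean 1101 CPM) and MEK inhibitor spheroids (mean 3381 CPM) lie apart from the other FaDu groups, and Kyse30 non-invasive replicate 1 (9686 CPM) lies apart from its own group.

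In FaDu spheroids given EGF, the MEK inhibitor went with higher interferon-stimulated gene levels than cetuximab did. Of the 42 genes 36 were higher and none was lower (edgeR's quasi-likelihood test, Benjamini-Hochberg adjusted p under 0.05 over 12131 genes, a gene past it being described as called), where 8.54% of all genes were higher and 11.2% lower, 19.7% in either direction. All 42 fitted log2 fold changes, given below with their standard errors, were positive and their median was 1.87, against 0.003 over all genes. For 31 members every MEK inhibitor library exceeded every cetuximab library, which held for 8.33% of all genes. Both groups are unselected spheroids under EGF. The summed squamous markers moved with this comparison, at 8347 to 9775 CPM with the MEK inhibitor and 5370 to 7231 CPM with cetuximab, and their part in the result was not tested.

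By role, all 8 of the RNA sensors and nucleases rose, as did all 4 IFIT genes, the 3 effector GTPases and nucleotide enzymes (MX1, SAMD9 and SAMD9L), 4 of 5 of the PARP family and DTX3L, 4 of 6 genes of ISG15 conjugation and ubiquitin ligation, 3 of 4 transcription factors, 2 of 4 membrane restriction factors and all 8 other induced proteins. The 6 that did not pass were SP110, TRIM21, USP18, PARP10, IFITM1 and IFITM2. ISG15, a ubiquitin-like protein that is joined to other proteins, had 146, 252, 182 and 158 CPM in the MEK inhibitor libraries, against 44.9, 69, 33.9 and 27.2 CPM in the cetuximab libraries. The ranges were separate (log2 fold change 2.09 ± 0.25, adjusted p = 2.63e-06). UBE2L6, the conjugating enzyme that loads ISG15 onto its targets, had 37, 52.6, 53.3 and 56.1 CPM with the MEK inhibitor against 11.8, 18, 13.5 and 10.5 CPM with cetuximab, again without overlap (log2 fold change 1.91 ± 0.20, adjusted p = 9.24e-08). USP18, the protease that removes ISG15 and restrains the receptor, had 9.16, 10.2, 11.8 and 6.17 CPM with the MEK inhibitor and 4.47, 9.14, 9.44 and 3.1 CPM with cetuximab, and these ranges overlapped (log2 fold change 0.53 ± 0.42, adjusted p = 0.42).

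The IFIT proteins bind viral RNA and block its translation. IFIT3 had 135, 142, 94.9 and 34.5 CPM with the MEK inhibitor, against 11.4, 16.1, 7.83 and 5.85 CPM with cetuximab. All 4 MEK inhibitor values were above all cetuximab values (log2 fold change 3.34 ± 0.55, adjusted p = 0.000393), and IFIT1 did the same with 36.6, 58.8, 62 and 18.3 CPM with the MEK inhibitor against 5.59, 8.82, 3.62 and 3.61 CPM with cetuximab (log2 fold change 3.06 ± 0.43, adjusted p = 1.63e-05). IFI44L, a cytoplasmic protein known as a feedback regulator of the interferon response, had 59.6, 101, 98.2 and 42.3 CPM with the MEK inhibitor, against 1.79, 1.57, 0 and 1.72 CPM with cetuximab (log2 fold change 5.88 ± 0.74, adjusted p = 5.91e-05). The gene was close to absent in the cetuximab libraries and at 42.3 CPM or more in each MEK inhibitor library. IFI27, a small mitochondrial membrane protein, had 53.6, 152, 111 and 66.8 CPM with the MEK inhibitor against 5.81, 12, 1.61 and 2.92 CPM with cetuximab (log2 fold change 4.21 ± 0.50, adjusted p = 1.04e-05), with a gap between the groups.

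PARP14, which adds ADP-ribose to proteins, had 283, 222, 228 and 186 CPM with the MEK inhibitor, against 85.8, 69.6, 85.4 and 80.6 CPM with cetuximab (log2 fold change 1.51 ± 0.14, adjusted p = 1.6e-08). The lowest MEK inhibitor library was above the highest cetuximab library. PARP9 and DTX3L, which work together as a ubiquitin ligase and are encoded next to PARP14 on chromosome 3, rose with log2 fold changes of 2.02 ± 0.22 (adjusted p = 1.74e-07) and 1.47 ± 0.17 (adjusted p = 7.18e-07). PARP9 and DTX3L overlap each other, and since the strand setting of the counting is not known their counts may share reads. SAMD9L, a growth and translation suppressor encoded beside SAMD9 on chromosome 7, had 32.4, 27.4, 32.5 and 19.99 CPM with the MEK inhibitor and 2.9, 0.945, 4.62 and 4.64 CPM with cetuximab (log2 fold change 3.02 ± 0.32, adjusted p = 1.37e-07). MX1, a GTPase that traps viral particles, had 8.11, 20.3, 21.5 and 10.4 CPM with the MEK inhibitor against 1.12, 0.315, 1.21 and 0.86 CPM with cetuximab (log2 fold change 4.02 ± 0.82, adjusted p = 0.00135). OAS2 and XAF1, an RNA-activated synthetase of oligoadenylates and a proapoptotic protein, had 0 counts in all 4 cetuximab libraries and were at least 26.5-fold and 39.6-fold higher with the MEK inhibitor, taking 3 counts over the group as the floor.

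Among the transcription factors, STAT2 had 18, 24, 22.9 and 19.6 CPM with the MEK inhibitor and 10.9, 12.6, 12.4 and 10.8 CPM with cetuximab (log2 fold change 0.86 ± 0.21, adjusted p = 0.00507), with every MEK inhibitor library above every cetuximab library. IRF7, which amplifies interferon production, had 22.6, 39.2, 24.4 and 26.8 CPM with the MEK inhibitor against 5.81, 3.78, 3.41 and 9.8 CPM with cetuximab (log2 fold change 2.27 ± 0.35, adjusted p = 3.29e-05), again apart. IRF9, the DNA-binding partner of STAT2, averaged 8.99 ± 5.1 CPM with the MEK inhibitor and 1.92 ± 1.4 CPM with cetuximab (log2 fold change 2.25 ± 0.61, adjusted p = 0.00958). The highest cetuximab library, 3.78 CPM, was above the lowest MEK inhibitor library, 3.62 CPM. The constitutively abundant RNA editor ADAR averaged 213 ± 14.3 CPM with the MEK inhibitor and 134 ± 23.9 CPM with cetuximab (log2 fold change 0.67 ± 0.12, adjusted p = 0.000163), and the kinase EIF2AK2 (PKR), which halts translation on double-stranded RNA, averaged 194 ± 29.2 CPM with the MEK inhibitor and 131 ± 8.26 CPM with cetuximab (log2 fold change 0.56 ± 0.12, adjusted p = 0.00172). Every MEK inhibitor library was above every cetuximab library in both. LGALS3BP, a secreted glycoprotein whose ranges overlapped, averaged 234 ± 35.4 CPM with the MEK inhibitor and 163 ± 20.3 CPM with cetuximab (log2 fold change 0.52 ± 0.12, adjusted p = 0.00235).

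**Figure D3:**
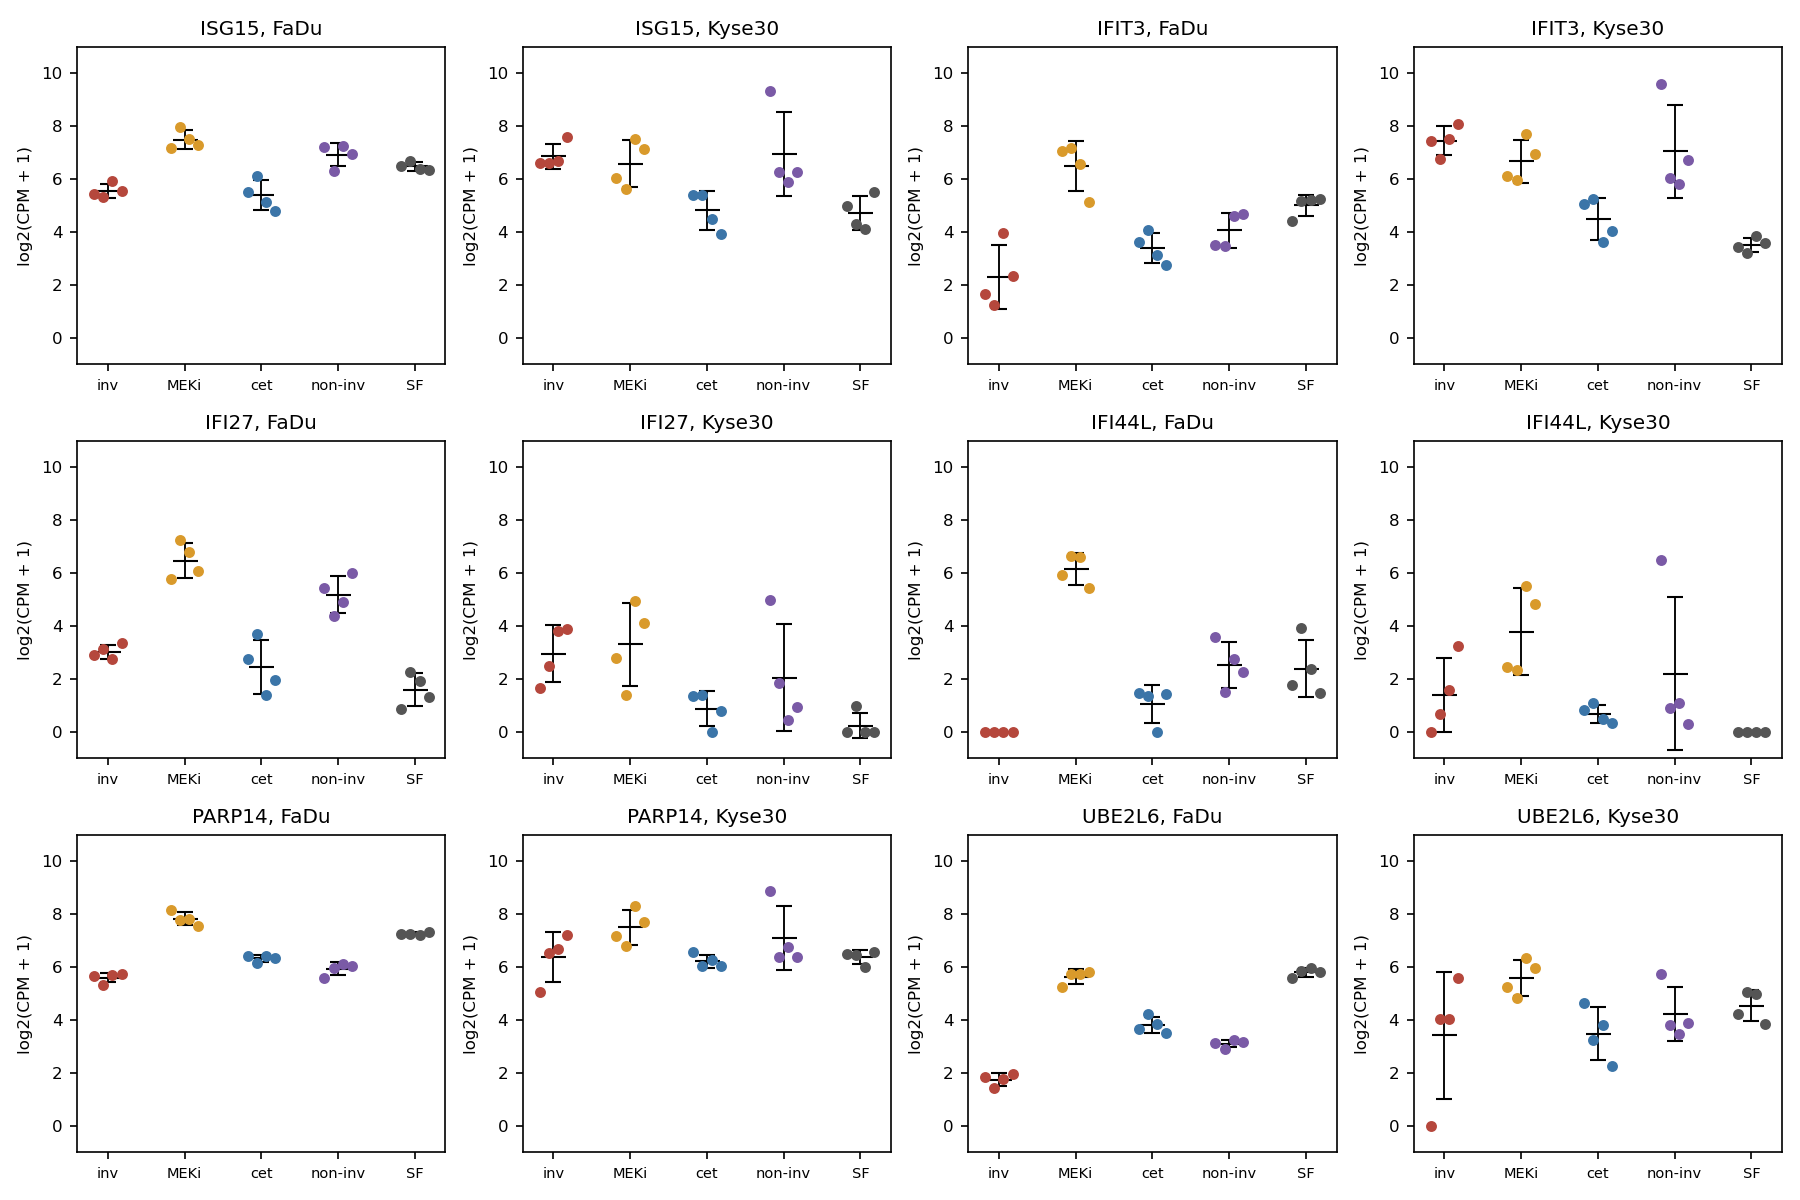
log2(CPM + 1) of ISG15, IFIT3, IFI27, IFI44L, PARP14 and UBE2L6 in each library (points) with the mean ± SD of the log2 values (bars), by group, for FaDu and Kyse30. In FaDu the MEK inhibitor libraries lie above the cetuximab libraries for all 6 genes, and UBE2L6 with the MEK inhibitor (37 to 56.1 CPM) overlaps the serum-free spheroids (47 to 62.1 CPM).

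Set against serum-free FaDu spheroids, EGF with MEK inhibitor went with 17 genes higher and 1 lower of 42, where 10.8% of all genes were higher and 8.63% lower, 19.4% in either direction. Their median change on the log2 scale was 0.69, against -0.003 over all genes. The genes that rose included all members of the IFIT family but IFIT5, and IFI27, IFI6, IFI44, IFI44L, IFITM3, OAS1, OAS3, OASL, ISG15 and PLSCR1. IFI27 had 53.6, 152, 111 and 66.8 CPM with the MEK inhibitor, against 0.817, 3.75, 2.84 and 1.51 CPM without EGF, ranges far apart (log2 fold change 5.33 ± 0.57, adjusted p = 1.62e-06). IFITM3, which blocks virus entry at endosomes, had 448, 772, 648 and 666 CPM with the MEK inhibitor against 241, 255, 263 and 259 CPM without EGF (log2 fold change 1.32 ± 0.16, adjusted p = 1.15e-06), also without overlap. Reads of IFITM3 and the near-identical IFITM2 may be split between them, so the level of each is uncertain. OAS3, a synthetase of the RNase L pathway, had 37, 69.2, 71.1 and 50.6 CPM with the MEK inhibitor and 16.8, 18.1, 15.3 and 19.4 CPM without EGF (log2 fold change 1.71 ± 0.23, adjusted p = 3.68e-06), and PLSCR1, a membrane phospholipid scramblase with antiviral effect, had 74.4, 108, 61.8 and 60.6 CPM with the MEK inhibitor and 39.6, 28.6, 23 and 38.1 CPM without EGF (log2 fold change 1.24 ± 0.21, adjusted p = 8.4e-05). Both were higher in every MEK inhibitor library.

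Some genes that were above their cetuximab level with the MEK inhibitor did not pass against serum-free spheroids. UBE2L6 had 37 to 56.1 CPM with the MEK inhibitor and 47 to 62.1 CPM without EGF (log2 fold change -0.15 ± 0.18, adjusted p = 0.608), and SAMD9L had 19.99 to 32.5 CPM with the MEK inhibitor and 23 to 39.6 CPM without EGF (log2 fold change -0.13 ± 0.27, adjusted p = 0.789). These ranges overlapped. SAMD9, a cytoplasmic restriction factor for poxviruses, fell to 222, 229.9, 192 and 137 CPM with the MEK inhibitor, against 284, 250.1, 279 and 300.5 CPM without EGF (log2 fold change -0.51 ± 0.15, adjusted p = 0.015). STAT2 averaged 21.1 ± 2.82 CPM with the MEK inhibitor and 28.6 ± 4.14 CPM without EGF (log2 fold change -0.43 ± 0.21, adjusted p = 0.145). SAMD9 lost its call without MEK inhibitor replicate 3 or 4 or serum-free replicate 4. IFIT3 lost its call without MEK inhibitor replicate 1 or 2 and without any 1 of the serum-free libraries. The summed squamous markers were at 8347 to 9775 CPM with the MEK inhibitor and 7038 to 7450 CPM without EGF, and their part was not tested.

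Against EGF non-invasive FaDu cells, EGF with MEK inhibitor went with 25 genes higher and none lower of 42, where 14.8% of all genes were higher and 14.9% lower, 29.7% in either direction. On the log2 scale their median change was 1.27, against 0.032 over all genes. PARP14 had 283, 222, 228 and 186 CPM with the MEK inhibitor, against 47.1, 62.4, 69.5 and 64.6 CPM in non-invasive cells, without overlap (log2 fold change 1.91 ± 0.14, adjusted p = 6.04e-11). UBE2L6 was at 37 to 56.1 CPM with the MEK inhibitor against 6.52 to 8.47 CPM in non-invasive cells (log2 fold change 2.69 ± 0.21, adjusted p = 1.21e-10), and PARP9, SAMD9L and DTX3L rose with log2 fold changes of 1.69 ± 0.21 (adjusted p = 7.14e-07), 2.40 ± 0.30 (adjusted p = 8.37e-07) and 1.23 ± 0.17 (adjusted p = 3.42e-06). All 4 IFIT genes and all 4 membrane restriction factors rose, IFITM1 at the threshold and past it in 7 of 15 alternative settings (adjusted p up to 0.199), and 5 of 8 sensors and nucleases did. None of the 4 transcription factors passed. ISG15 did not pass in this comparison: it had 146, 252, 182 and 158 CPM with the MEK inhibitor and 147, 78.7, 151 and 124 CPM in non-invasive cells (log2 fold change 0.56 ± 0.23, adjusted p = 0.0742). The highest non-invasive value exceeded the lowest MEK inhibitor value. The summed squamous markers were at 8347 to 9775 CPM with the MEK inhibitor and 6448 to 7506 CPM in non-invasive cells, and CD68 at 0 to 2.54 CPM with the MEK inhibitor and 6.94 to 10.9 CPM in non-invasive cells, and their part was not tested.

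With cetuximab most called genes were lower in FaDu. Against serum-free spheroids 26 of 42 genes were lower with EGF and cetuximab and 2 higher, where 22.7% of all genes were higher and 21.1% lower, 43.8% in either direction, and the median log2 fold change was -0.89, against -0.015 over all genes. UBE2L6 had 11.8, 18, 13.5 and 10.5 CPM with cetuximab, against 47, 57.2, 62.1 and 55.5 CPM without EGF (log2 fold change -2.06 ± 0.20, adjusted p = 2.9e-09). SAMD9L was near 0, at 2.9, 0.945, 4.62 and 4.64 CPM with cetuximab, against 34.3, 39.6, 23 and 25.7 CPM without EGF (log2 fold change -3.15 ± 0.32, adjusted p = 8.68e-09). In both genes the groups were separate, and PARP14 (log2 fold change -0.93 ± 0.14, adjusted p = 4.37e-06), SAMD9 (log2 fold change -1.20 ± 0.15, adjusted p = 3.46e-07) and STAT2 (log2 fold change -1.29 ± 0.21, adjusted p = 2.11e-05) fell as well. OAS2 and XAF1, at 0 counts with cetuximab, were at least 17.6-fold and 33.6-fold lower than without EGF, with the same floor. The 2 genes that rose were IFITM3, 391, 545, 385 and 263 CPM with cetuximab and 241, 255, 263 and 259 CPM without EGF (log2 fold change 0.64 ± 0.16, adjusted p = 0.00238), and OAS3, 34.2, 31.8, 25.1 and 19.8 CPM with cetuximab and 16.8, 18.1, 15.3 and 19.4 CPM without EGF (log2 fold change 0.66 ± 0.23, adjusted p = 0.0224). In both the lowest cetuximab library lay close to the highest serum-free one. MX1 fell (log2 fold change -3.24 ± 0.83, adjusted p = 0.00331), but 1 serum-free library carried its level: the serum-free values were 2.45, 27.9, 1.42 and 2.52 CPM, and without replicate 2 MX1, OAS1 and IFI44L lost their calls. CD68 was at 1.79 to 6.93 CPM with cetuximab and 0 to 1.70 CPM without EGF, the summed COL1A1 and CDH5 at 6.22 to 15.5 CPM with cetuximab and 19.7 to 27.7 CPM without EGF, and the mitochondrial share at 7.02% to 10.96% with cetuximab and 14.3% to 15.8% without EGF. The part of these in the result was not tested.

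Against non-invasive cells of EGF spheroids, 10 genes were lower with EGF and cetuximab and 1 was higher, where 3.64% of all genes were higher and 4.93% lower, 8.56% in either direction. The median log2 fold change was -0.49, against 0.051 over all genes. ISG15 fell to 44.9, 69, 33.9 and 27.2 CPM with cetuximab, against 147, 78.7, 151 and 124 CPM in non-invasive cells (log2 fold change -1.53 ± 0.24, adjusted p = 0.000196), and every cetuximab value was below every non-invasive value. IFI27 had 1.61 to 12 CPM with cetuximab against 19.8 to 62.9 CPM in non-invasive cells (log2 fold change -2.89 ± 0.50, adjusted p = 0.00085), and IRF7 had 3.41 to 9.8 CPM with cetuximab against 18.4 to 24.3 CPM in non-invasive cells (log2 fold change -1.88 ± 0.35, adjusted p = 0.000635). The other lower genes included SAMD9 (log2 fold change -0.87 ± 0.15, adjusted p = 0.000293) and IFI44 (log2 fold change -2.16 ± 0.53, adjusted p = 0.00918). UBE2L6, low in both groups, was the 1 gene that rose, with 11.8, 18, 13.5 and 10.5 CPM with cetuximab and 7.84, 6.52, 8.47 and 7.98 CPM in non-invasive cells (log2 fold change 0.78 ± 0.21, adjusted p = 0.0177). UBE2L6 was not called by limma-voom, in the fit of the 2 groups alone, without cetuximab replicate 2 or 3 or without non-invasive replicate 2. Without cetuximab replicate 3, 5 genes were called in place of 11, all lower. CD68 was at 1.79 to 6.93 CPM with cetuximab and 6.94 to 10.9 CPM in non-invasive cells, and its part was not tested.

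Between non-invasive EGF cells and serum-free spheroids of FaDu, calls went in both directions among members as among all genes. In non-invasive EGF cells 5 genes were higher and 12 lower than in serum-free spheroids, where 25.3% of all genes were higher and 24.7% lower, 50.0% in either direction, so the share of members called was below that of all genes. The median log2 fold change of members was -0.34, against -0.021 over all genes. IFI27 had 42.6, 19.8, 28.8 and 62.9 CPM in non-invasive cells, against 0.817, 3.75, 2.84 and 1.51 CPM without EGF (log2 fold change 4.01 ± 0.57, adjusted p = 1.05e-05). IFI6, which acts at the endoplasmic reticulum against flaviviruses, had 76.6, 42.6, 57.1 and 104 CPM in non-invasive cells and 15.1, 26, 18.2 and 17.4 CPM without EGF (log2 fold change 1.85 ± 0.54, adjusted p = 0.00889). In both genes the groups were apart, and OAS3 (log2 fold change 1.46 ± 0.23, adjusted p = 7.22e-06), OASL, a relative of the synthetases that boosts RNA sensing (log2 fold change 2.66 ± 0.60, adjusted p = 0.000563), and IFITM3 (log2 fold change 0.54 ± 0.16, adjusted p = 0.00701) rose too.

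The 12 genes that were lower in non-invasive FaDu cells than without EGF were ADAR, IFIH1, IFIT5, IFITM2, SAMD9L, UBE2L6, TRIM22, PARP9, PARP14, DTX3L, STAT2 and IFI35. UBE2L6 had 7.84, 6.52, 8.47 and 7.98 CPM in non-invasive cells, against 47, 57.2, 62.1 and 55.5 CPM without EGF (log2 fold change -2.84 ± 0.21, adjusted p = 1.43e-11), and PARP14 had 47.1, 62.4, 69.5 and 64.6 CPM in non-invasive cells against 151, 153, 149.5 and 160.1 CPM without EGF (log2 fold change -1.33 ± 0.14, adjusted p = 1.25e-08). In both the lowest serum-free library lay above the highest non-invasive one. SAMD9L (log2 fold change -2.53 ± 0.31, adjusted p = 1.38e-07), STAT2 (log2 fold change -0.86 ± 0.21, adjusted p = 0.00128) and the ubiquitin ligase TRIM22 (log2 fold change -3.82 ± 0.90, adjusted p = 0.00109) fell as well. TRIM22 is uncertain, since it overlaps TRIM5 and stood at 0 in 3 of 4 non-invasive libraries. ISG15, with 147, 78.7, 151 and 124 CPM in non-invasive cells and 88.7, 104, 82.8 and 81.2 CPM without EGF, did not pass (log2 fold change 0.49 ± 0.24, adjusted p = 0.0889). CD68 moved with this comparison, at 6.94 to 10.9 CPM in non-invasive cells and 0 to 1.70 CPM without EGF. So did the summed COL1A1 and CDH5, at 4.43 to 10.9 CPM in non-invasive cells and 19.7 to 27.7 CPM without EGF, and the share of counts from mitochondrial genes, at 7.50% to 11.5% in non-invasive cells and 14.3% to 15.8% without EGF. Their part in the result was not tested.

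FaDu invasive cells had lower interferon-stimulated gene levels than the non-invasive cells of the same treatment. Of 42 genes 17 were lower and none higher, where 0.659% of all genes were higher and 2.34% lower, 3.00% in either direction. The fitted log2 fold change was negative for 41 of 42, with a median of -1.31, or -1.26 with genes at 0 set to their bound, against -0.012 over all genes. For 21 genes every invasive library was below every non-invasive library, which held for 6.67% of all genes. Every role held lower genes: 3 sensors and nucleases, 1 IFIT gene, 2 membrane factors, 2 effector GTPases and nucleotide enzymes, 3 genes of ISG15 conjugation and ubiquitin ligation, 3 of the PARP family and DTX3L, 1 transcription factor and 2 other induced proteins. Of the 23 other pathway genes none passed (5 had an unadjusted p under 0.05). Beside these changes, 11631 to 12167 genes were detected in the invasive libraries and 12296 to 12335 in the non-invasive ones. CD68 was at 3.59 to 7.74 CPM in invasive cells and 6.94 to 10.9 CPM in non-invasive cells. The part of these in the result, and in the genes at 0, was not tested.

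IFITM3 had 168, 140.0, 172 and 172 CPM in invasive cells, against 398, 347, 343 and 391 CPM in non-invasive cells (log2 fold change -1.18 ± 0.17, adjusted p = 7.6e-05). The groups were separate by more than the spread within either. SAMD9 had 114, 117, 115 and 102 CPM in invasive cells against 202, 237, 196 and 248 CPM in non-invasive cells (log2 fold change -0.98 ± 0.15, adjusted p = 0.000262), and ISG15 had 42.6, 38.7, 60.2 and 46.6 CPM in invasive cells against 147, 78.7, 151 and 124 CPM in non-invasive cells (log2 fold change -1.41 ± 0.24, adjusted p = 0.00161). Neither overlapped. UBE2L6 fell too, with 2.63, 1.68, 2.44 and 2.87 CPM in invasive and 7.84, 6.52, 8.47 and 7.98 CPM in non-invasive cells (log2 fold change -1.64 ± 0.26, adjusted p = 0.000435), and PARP9 (log2 fold change -1.52 ± 0.24, adjusted p = 0.000311) and SAMD9L (log2 fold change -2.42 ± 0.43, adjusted p = 0.00143) fell likewise. IFI27 had 6.46, 7.74, 5.8 and 9.33 CPM in invasive and 42.6, 19.8, 28.8 and 62.9 CPM in non-invasive cells (log2 fold change -2.38 ± 0.48, adjusted p = 0.00901). IFI44L had 0 counts in all 4 invasive libraries and was at least 27.4-fold lower there, against 11, 1.86, 5.8 and 3.87 CPM in non-invasive cells. OAS2, XAF1 and TRIM22 also had no count in any invasive library. Against non-invasive cells OAS2 was at least 4.98-fold lower, XAF1 at least 2.27-fold and TRIM22 at least 1.13-fold.

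Genes that did not pass in this comparison were IFIT3, with 2.15, 1.35, 14.7 and 4.07 CPM in invasive and 10.5, 10.02, 23.2 and 24.9 CPM in non-invasive cells (log2 fold change -1.65 ± 0.61, adjusted p = 0.177), PARP14, with 39.7 to 52.6 CPM in invasive cells and 47.1 to 69.5 CPM in non-invasive cells (log2 fold change -0.34 ± 0.14, adjusted p = 0.224), and MX1, with 0.239 to 2.44 CPM in invasive cells and 2.33 to 6.46 CPM in non-invasive cells (log2 fold change -2.33 ± 0.91, adjusted p = 0.188). All 3 genes had overlapping ranges. The number of calls depended on single libraries: it was 10 without non-invasive replicate 1 or 3, and 11 without non-invasive replicate 4 or without invasive replicate 1 or 4. Limma-voom called 11 genes.

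**Figure D4:**
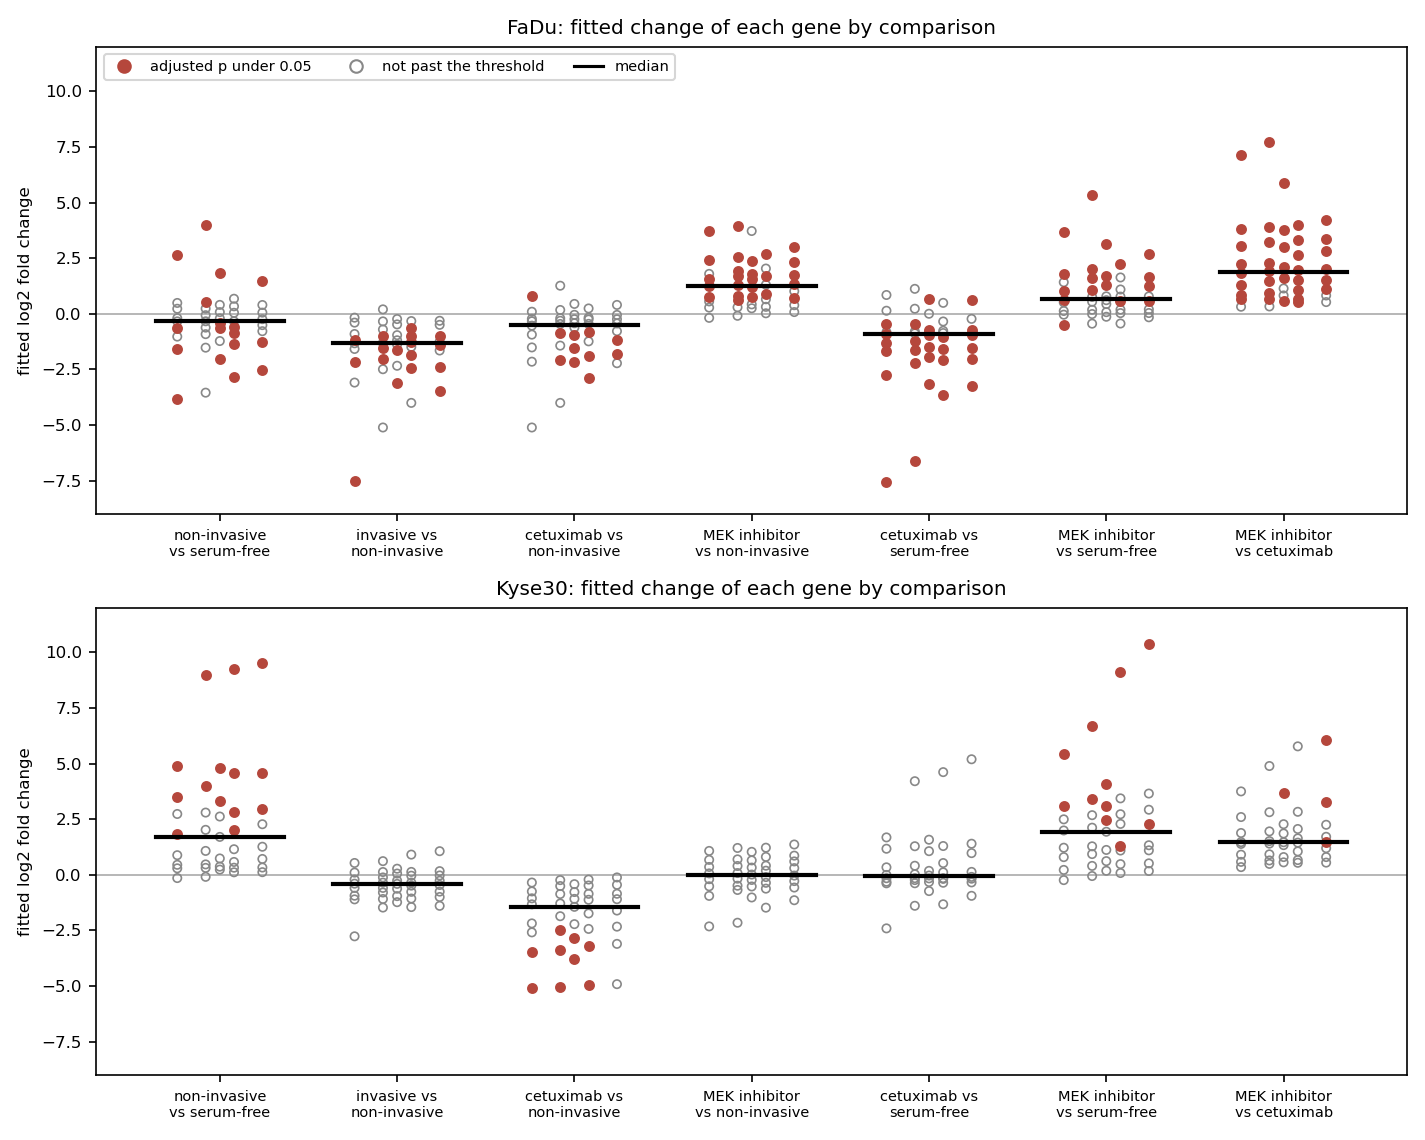
Fitted log2 fold change of each tested interferon-stimulated gene (points, filled where the adjusted p was under 0.05) in 7 comparisons in FaDu and Kyse30, with the median as a black bar. In FaDu the medians are 1.87 for MEK inhibitor against cetuximab and -1.31 for invasive against non-invasive cells, and in Kyse30 no point is filled for cetuximab against serum-free or for invasive against non-invasive cells.

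In Kyse30, 39 of the 42 genes were tested. IFITM1, IFITM2 and IRF7 were under the expression filter, and IRF7 had 0 counts in all 20 libraries. Several members were near silent without EGF. IFIT1 had 1 count over the 4 serum-free libraries, and IFI44L, XAF1 and IFITM1 had none. Against serum-free spheroids, EGF non-invasive cells had 14 genes higher and none lower, where 8.10% of all genes were higher and 4.76% lower, 12.9% in either direction. Their median was 1.71 on the log2 scale, against 0.026 over all genes. Beside these changes the summed squamous markers were at 2507 to 3629 CPM in non-invasive cells and 1791 to 1941 CPM without EGF, the summed COL1A1 and CDH5 at 5.85 to 21.1 CPM in non-invasive cells and 25 to 41.7 CPM without EGF, the mitochondrial share at 8.22% to 19.25% in non-invasive cells and 19.65% to 23.8% without EGF, and the MALAT1 share at 1.68% to 9.63% in non-invasive cells and 1.01% to 1.27% without EGF. Their part in the result was not tested.

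IFIT2, IFIT3 and IFIT1 had the smallest adjusted p of these genes. IFIT2 had 759, 119, 116 and 167 CPM in non-invasive cells, against 13.2, 10.9, 13.4 and 10.6 CPM without EGF (log2 fold change 4.59 ± 0.54, adjusted p = 2.44e-06). IFIT3 had 784, 65.4, 55.4 and 106 CPM in non-invasive cells, against 9.89, 8.35, 13.4 and 11 CPM without EGF (log2 fold change 4.57 ± 0.72, adjusted p = 0.000117). All non-invasive values were above all serum-free values, and replicate 1 was several times the other 3. IFIT1 had 224, 6.71, 11.2 and 22.5 CPM in non-invasive cells, against 0.366, 0, 0 and 0 CPM without EGF, a ratio of 632 whose 95% counting interval ran from 113 to 24982. ISG15 had 638, 75.8, 58.9 and 77.3 CPM in non-invasive cells, against 31.1, 18.6, 16.5 and 44.5 CPM without EGF (log2 fold change 2.94 ± 0.63, adjusted p = 0.00248), and OASL had 97.8, 13, 18.5 and 23 CPM in non-invasive cells, against 0.733, 0, 0 and 4.66 CPM without EGF (log2 fold change 4.88 ± 0.89, adjusted p = 0.000497). Both were separate between the groups. Reads of IFIT1, IFIT2 and IFIT3 may include those of LIPA, which overlaps them on the opposite strand, since the strand setting is not known.

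Other Kyse30 calls rested on replicate 1 of the non-invasive cells. IFI44L had 89.7, 0.867, 1.16 and 0.225 CPM in non-invasive cells and 0 counts in serum-free spheroids, at least 82.3-fold higher as a group mean. XAF1, likewise at 0 counts without EGF, was at least 98.4-fold higher. IFITM1, not tested in this line, was at least 8.21-fold higher. IFI27 had 30.5, 2.6, 0.385 and 0.902 CPM in non-invasive cells against 0, 0.964, 0 and 0 CPM without EGF, a ratio of 27.5 (counting interval 9.19 to 135), and USP18 had 17.3, 0.867, 0.385 and 2.03 CPM in non-invasive cells against 0.733, 0, 0 and 0.424 CPM without EGF, a ratio of 16.7 (5.47 to 82.8). In IFI44L, IFI27 and USP18 1 library carried most of the group's level. Without that library 8 members were called and the median was 0.28. IFIT1, IFIT2, IFIT3, OASL, ISG15 and IRF9 were among them, with log2 fold changes of 3.47 for IFIT2, 2.83 for IFIT3, 3.81 for OASL and 1.36 for ISG15, while IFI44L, IFI27 and USP18 were not. IRF9 had 9.75, 1.52, 9.62 and 5.63 CPM in non-invasive cells and 0.733, 1.28, 0 and 0 CPM without EGF, separate in every library. PARP14, with 474, 81.7, 108 and 83.4 CPM in non-invasive cells and 90.1, 87.4, 62.9 and 95.3 CPM without EGF, did not pass (log2 fold change 1.15 ± 0.46, adjusted p = 0.103), nor did STAT2 (log2 fold change 0.31 ± 0.36, adjusted p = 0.638).

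IFIT2, IFIT3 and OASL were lower with cetuximab than in non-invasive cells in Kyse30. Against EGF non-invasive cells 9 genes were lower with EGF and cetuximab and none higher, where 1.85% of all genes were higher and 3.08% lower, 4.93% in either direction, and all 39 fitted values were negative with a median of -1.44, against -0.033 over all genes. IFIT2 had 56.5, 38.8, 17.1 and 15 CPM with cetuximab, against 759, 119, 116 and 167 CPM in non-invasive cells, without overlap (log2 fold change -3.19 ± 0.50, adjusted p = 0.000253). OASL had 1.04, 1.61, 0.824 and 1.25 CPM with cetuximab, against 97.8, 13, 18.5 and 23 CPM in non-invasive cells (log2 fold change -4.97 ± 0.85, adjusted p = 0.000716), and IFIT3 had 32.1, 37.2, 11.3 and 15.5 CPM with cetuximab, against 784, 65.4, 55.4 and 106 CPM in non-invasive cells (log2 fold change -3.39 ± 0.66, adjusted p = 0.00296). Both were lower in every cetuximab library. ISG15 (log2 fold change -2.83 ± 0.62, adjusted p = 0.00701), IFI44 (log2 fold change -3.46 ± 0.81, adjusted p = 0.0116), IFI44L, IFIH1, IFIT1 and TRIM22 were the others, TRIM22 with a ratio of 0.0268 (counting interval 0.00317 to 0.101). IFIT1 had overlapping ranges, 0.618 to 10.9 CPM with cetuximab and 6.71 to 224 CPM in non-invasive cells. Its call missed the threshold in 7 of 18 alternative settings (adjusted p up to 0.472). Without non-invasive replicate 1 the calls came to 3, IFIT2 at -2.07, OASL at -3.9 and IFIT3 at -1.66, with a median of -0.39, and without cetuximab replicate 3 they came to 5. The squamous markers were at 1707 to 2281 CPM with cetuximab and 2507 to 3629 CPM in non-invasive cells, and the MALAT1 share at 0.798% to 1.31% with cetuximab and 1.68% to 9.63% in non-invasive cells, and their part was not tested.

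Between EGF with cetuximab and no EGF, Kyse30 showed no call by edgeR's quasi-likelihood test (4 genes had an unadjusted p under 0.05), none by limma-voom and 1 by DESeq2. Of all genes 1.88% were higher and 1.25% lower, 3.13% in either direction, and the members' median log2 fold change was -0.03, against 0.007 over all genes. IFIT2 had 56.5, 38.8, 17.1 and 15 CPM with cetuximab and 13.2, 10.9, 13.4 and 10.6 CPM without EGF (log2 fold change 1.40 ± 0.51, adjusted p = 0.134), so each cetuximab value was above each serum-free value although the test was not passed. ISG15 had 41.7, 41.6, 21.8 and 14.3 CPM with cetuximab and 31.1, 18.6, 16.5 and 44.5 CPM without EGF (log2 fold change 0.11 ± 0.61, adjusted p = 0.96), overlapping. OAS1, abundant in this line, had 77.5, 59.5, 61 and 48.3 CPM with cetuximab and 76.2, 86.1, 56.2 and 89 CPM without EGF (log2 fold change -0.32 ± 0.51, adjusted p = 0.824).

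With EGF and MEK inhibitor, 11 Kyse30 genes were higher than without EGF and none lower, where 2.29% of all genes were higher and 1.61% lower, 3.90% in either direction. The median log2 fold change was 1.94, against 0.009 over all genes, and 26 members had an unadjusted p under 0.05. For 25 genes every MEK inhibitor library exceeded every serum-free library, which held for 10.6% of all genes. IFIT2 had 98.5, 101, 122 and 95.6 CPM with the MEK inhibitor, against 13.2, 10.9, 13.4 and 10.6 CPM without EGF (log2 fold change 3.11 ± 0.52, adjusted p = 0.00109). IFIT3 had 68, 61.3, 206 and 123 CPM with the MEK inhibitor against 9.89, 8.35, 13.4 and 11 CPM without EGF (log2 fold change 3.43 ± 0.69, adjusted p = 0.00664), and IFI6 had 104, 75.8, 266 and 156 CPM with the MEK inhibitor against 19.8, 13.5, 23.6 and 13.1 CPM without EGF (log2 fold change 3.10 ± 0.79, adjusted p = 0.0261). These were apart in all libraries. BST2 (tetherin), which holds budding viruses at the cell surface, had 16.1, 17.4, 68.8 and 32.9 CPM with the MEK inhibitor, against 6.59, 0.964, 0 and 0 CPM without EGF (log2 fold change 4.10 ± 0.99, adjusted p = 0.0184). IFITM3 had 247, 208, 636 and 592 CPM with the MEK inhibitor against 151, 188, 158 and 178 CPM without EGF (log2 fold change 1.32 ± 0.35, adjusted p = 0.0324). IFI44L, XAF1 and IFITM1 had 0 counts without EGF. IFI44L and XAF1 were at least 72.7-fold and 178-fold higher, IFITM1 (not tested) was at least 18.6-fold higher, IFIT1 had a ratio of 139 (counting interval 24.7 to 5523) and IFI27 a ratio of 47.3 (counting interval 16 to 231). ISG15 had 65.6, 48.5, 185 and 142 CPM with the MEK inhibitor and 31.1, 18.6, 16.5 and 44.5 CPM without EGF, separate but not called (log2 fold change 2.0 ± 0.61, adjusted p = 0.0678).

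Beside these changes the summed squamous markers were at 1952 to 2488 CPM with the MEK inhibitor and 1791 to 1941 CPM without EGF, COL1A1 and CDH5 at 13.4 to 23.1 CPM with the MEK inhibitor and 25 to 41.7 CPM without EGF, and the mitochondrial share at 9.39% to 13.4% with the MEK inhibitor and 19.65% to 23.8% without EGF. Their part was not tested. Single libraries set the count of this comparison. It was 3 (IFIT2, IFIT3 and XAF1) without MEK inhibitor replicate 3, 6 without MEK inhibitor replicate 4, and 7, 5, 5 and 6 without serum-free replicates 1 to 4. It was 17 where non-invasive replicate 1, which is in neither group but adds to the shared estimate of spread, was left out of the fit.

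Between the 2 agents Kyse30 showed 4 genes higher with the MEK inhibitor than with cetuximab and none lower, where 0.593% of all genes were higher and 0.585% lower, 1.18% in either direction. All 39 fitted values were positive, with a median of 1.47, against -0.013 over all genes, and 25 had an unadjusted p under 0.05. For 25 of the 42 genes every MEK inhibitor library was above every cetuximab library, which held for 6.32% of all genes. The 4 genes were IFITM3, with 247, 208, 636 and 592 CPM with the MEK inhibitor and 209, 152, 121 and 127 CPM with cetuximab (log2 fold change 1.47 ± 0.35, adjusted p = 0.0342), IFI6 (log2 fold change 3.26 ± 0.79, adjusted p = 0.0371), BST2, with 16.1, 17.4, 68.8 and 32.9 CPM with the MEK inhibitor and 4.41, 2.3, 3.09 and 0.501 CPM with cetuximab (log2 fold change 3.69 ± 0.92, adjusted p = 0.045), and TRIM22, at 6.18, 4.82, 15.8 and 14.2 CPM with the MEK inhibitor and 0, 0.46, 0 and 0 CPM with cetuximab, a ratio of 86.7 with a counting interval of 23.6 to 722. BST2, IFI6 and TRIM22 had separate ranges. PARP14 was separate without passing the test, at 111 to 321 CPM with the MEK inhibitor and 64.4 to 93.3 CPM with cetuximab (log2 fold change 1.39 ± 0.46, adjusted p = 0.196). LGALS3BP, not called either, overlapped, at 207 to 386 CPM with the MEK inhibitor and 112 to 218 CPM with cetuximab (log2 fold change 0.91 ± 0.29, adjusted p = 0.192). No gene was called without MEK inhibitor replicate 3 or without cetuximab replicate 1, 3 or 4, 1 was called without MEK inhibitor replicate 4 and 2 without cetuximab replicate 2. With non-invasive replicate 1 left out of the shared fit 15 genes were called.

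Between MEK inhibitor spheroids and EGF non-invasive cells of Kyse30 no member was called by edgeR's quasi-likelihood test (4 genes had an unadjusted p under 0.05) or limma-voom, and DESeq2 called 1 lower. Of all genes 1.65% were higher and 2.91% lower, 4.56% in either direction, and the members' median was 0.01, against -0.02 over all genes. The members' median was 0.89 without non-invasive replicate 1, with 6 genes called higher. Between invasive and non-invasive Kyse30 cells no member was called by edgeR's quasi-likelihood test (5 had an unadjusted p under 0.05), DESeq2 or limma-voom, where 0.0668% of all genes were higher and 0.342% lower, 0.409% in either direction. The median was -0.41, against -0.15 over all genes, and without non-invasive replicate 1 it was 0.69, with 30 of 40 fitted values positive. IFITM3 had 240.5, 270.4, 242 and 456 CPM in invasive and 501, 261, 146 and 199.7 CPM in non-invasive cells (log2 fold change 0.13 ± 0.35, adjusted p = 0.932), and ISG15 had 96.6, 96.3, 102 and 190.3 CPM in invasive cells and 638, 75.8, 58.9 and 77.3 CPM in non-invasive cells (log2 fold change -0.79 ± 0.58, adjusted p = 0.614). Among the invasive libraries, replicate 1 had too few counts to place rare genes: IFI44L had 0, 0.622, 2.04 and 8.47 CPM in invasive and 89.7, 0.867, 1.16 and 0.225 CPM in non-invasive cells (log2 fold change -2.76 ± 1.31, adjusted p = 0.38).

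The lines were compared directly in 1 fit of all 40 libraries over 12652 genes, with 42 members tested. The change of non-invasive EGF cells against serum-free spheroids was higher in Kyse30 than in FaDu for 20 genes and lower for none, where 9.48% of all genes differed upwards and 6.20% downwards, 15.7% in either direction. The median difference was 2.34, against 0.08 over all genes. It was 1.09 without replicate 1 of every group and 1.01 without both Kyse30 non-invasive libraries high in MALAT1, with 8 genes then called. It was 4.53 ± 0.74 for IFIT2 (adjusted p = 3.89e-05), with a log2 fold change of 4.59 in Kyse30 and 0.06 in FaDu. ISG15 (2.45 ± 0.74, adjusted p = 0.0208), IFIH1, the RNA sensor MDA5 (3.44 ± 0.65, adjusted p = 0.000202), PARP14 (2.48 ± 0.52, adjusted p = 0.000719), UBE2L6 (2.75 ± 0.68, adjusted p = 0.0036), SAMD9L (3.79 ± 0.79, adjusted p = 0.000877) and STAT2 (1.18 ± 0.40, adjusted p = 0.0358) differed in the same direction. The last 4 fell in FaDu and were not called in Kyse30. Of 13 alternative settings STAT2 missed the threshold in 8 (adjusted p up to 0.21) and ISG15 in 6 (up to 0.298). Of the 39 genes tested in both lines, IFI27, OAS3 and OASL rose in both, 3 of the 5 that rose in FaDu and 3 of the 14 that rose in Kyse30. The share of all genes that rose in both lines was not counted, so this overlap has no background. Without replicate 1, 2, 3 or 4 of every group 13, 11, 11 and 13 genes differed, and 12 did without Kyse30 non-invasive replicate 1 and the library of 463124 counts.

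The change with cetuximab against serum-free spheroids differed for 6 genes, all higher in Kyse30, where 7.07% of all genes differed upwards and 4.51% downwards, 11.6% in either direction. They were SAMD9L (2.85 ± 0.81, adjusted p = 0.0171), STAT2 (1.32 ± 0.40, adjusted p = 0.0239), MX1 (4.57 ± 1.40, adjusted p = 0.0267), IFIT1, IFIT2 (2.34 ± 0.76, adjusted p = 0.0366) and IFIT3 (2.92 ± 0.98, adjusted p = 0.0476). IFIT1 is given without its fitted value, which depends on the prior count because serum-free Kyse30 held 1 count. No gene differed without replicate 2 or replicate 4 of every group and 2 did without replicate 3. For the changes with MEK inhibitor against serum-free spheroids no member's difference between lines was called by edgeR's quasi-likelihood test or limma-voom (13 had an unadjusted p under 0.05), and DESeq2 called 2, where 1.27% of all genes differed upwards and 0.466% downwards, 1.74% in either direction. For invasive against non-invasive cells none was called by edgeR, DESeq2 or limma-voom (11 had an unadjusted p under 0.05), where 0.142% of all genes differed upwards and 0.0395% downwards, 0.182% in either direction. With MEK inhibitor against serum-free spheroids 8 genes rose in both lines, IFI27, IFI44L, IFI6, IFIT1, IFIT2, IFIT3, IFITM3 and OAS3, of 17 in FaDu and 11 in Kyse30. For the MEK inhibitor against cetuximab 4 rose in both, BST2, IFI6, IFITM3 and TRIM22, of 35 that rose in FaDu and 4 in Kyse30. For cetuximab against non-invasive cells 3 fell in both, IFI44, ISG15 and OASL, of 9 that fell in FaDu and 9 in Kyse30. How many of all genes were called in both lines was not counted. These overlaps therefore have no background and nothing is concluded from their size.

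**Figure D5:**
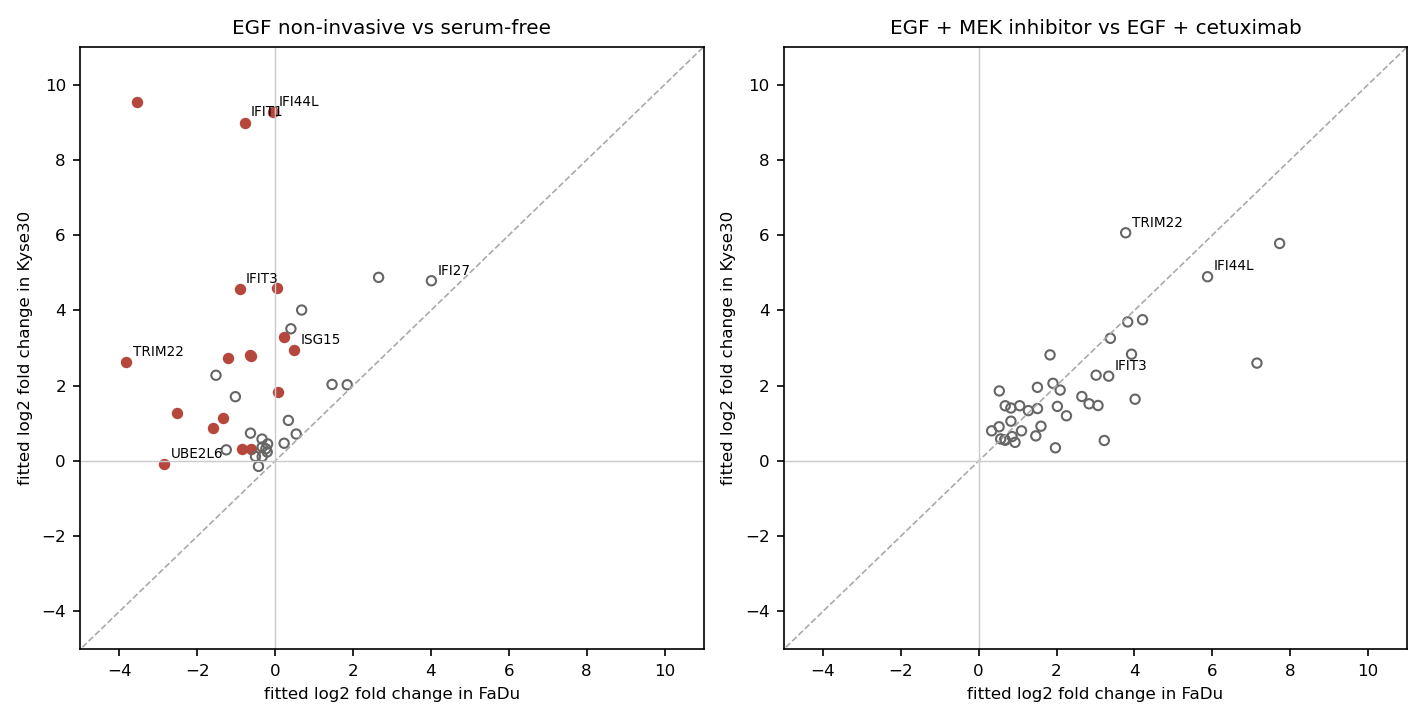
Fitted log2 fold change of the 39 interferon-stimulated genes tested in both lines, in FaDu (horizontal) and Kyse30 (vertical), with a dashed line of equal change. The panels show EGF non-invasive cells against serum-free spheroids (filled where the change differed between the lines) and MEK inhibitor against cetuximab (difference between lines not tested). IFITM1 and IFITM2, among the 20 genes that differed, are not drawn. In the first panel most points lie above the line of equal change, and in the second all points lie in the positive quadrant.

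Without EGF the lines differed in their basal levels. Of 42 genes 3 were higher and 16 lower in Kyse30 than in FaDu, where 21.5% of all genes were higher and 22.0% lower, 43.5% in either direction, so the members' share called was near that of all genes. The median log2 fold change was -0.70, against 0.008 over all genes. OAS1 had 76.2, 86.1, 56.2 and 89 CPM in Kyse30, against 3.68, 7.04, 3.4 and 1.26 CPM in FaDu (log2 fold change 4.28 ± 0.57, adjusted p = 7.01e-08), and was apart in every library. SAMD9 (log2 fold change 1.20 ± 0.27, adjusted p = 0.000266) and the helicase-like ZNFX1 (log2 fold change 1.05 ± 0.28, adjusted p = 0.00191) were also higher. IRF7 had 0 counts in Kyse30 and 14.3, 18.8, 15 and 17.1 CPM in FaDu, and IFITM1 had 0 counts in Kyse30 and 1.63, 5.16, 4.26 and 2.77 CPM in FaDu. ISG15 had 31.1, 18.6, 16.5 and 44.5 CPM in Kyse30, against 88.7, 104, 82.8 and 81.2 CPM in FaDu (log2 fold change -1.71 ± 0.54, adjusted p = 0.0108). The ranges of IRF7, IFITM1 and ISG15 were separate too. IFITM2, USP18 and IFIT1 were among the lower members as well. Without replicate 2 of every group 12 genes were called. Of 23 other pathway genes 2 were higher and 6 lower in Kyse30, beside 43.5% of all genes called in either direction. STING1 was among the higher ones, and IFNAR1, SOCS3 and DHX58 among the lower ones.

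Of 28 other genes of the interferon pathway, 23 had counts. The only ligand among them was IFNE, an interferon of epithelia, which had 0 to 10.4 CPM in FaDu and 0 to 4.62 CPM in Kyse30 and was called in no comparison within a line; IFNB1, IFNK and the 3 listed type III genes, IFNL1 to IFNL3, were not analysed here. In FaDu given MEK inhibitor rather than cetuximab 10 of 23 were higher and none lower, among them the transcription factor IRF1, at 387, 268, 160.4 and 104 CPM with the MEK inhibitor against 58.1, 67.4, 43.2 and 37.8 CPM with cetuximab (log2 fold change 2.16 ± 0.36, adjusted p = 0.000337), its relative IRF2 (log2 fold change 1.14 ± 0.19, adjusted p = 6.98e-05) and DHX58, a sensor of the RIG-I family (log2 fold change 3.16 ± 0.70, adjusted p = 0.00184). IRF1 was separate between the groups. Of all genes 19.7% were called in either direction there. Against serum-free spheroids 4 of 23 rose with the MEK inhibitor and none fell, near the 19.4% of all genes called in either direction. Among the 4 were IFNAR2 (log2 fold change 1.27 ± 0.25, adjusted p = 0.000605), RIGI, the sensor RIG-I (log2 fold change 1.44 ± 0.38, adjusted p = 0.00811), and the DNA sensor CGAS (log2 fold change 1.07 ± 0.32, adjusted p = 0.0196). Against non-invasive cells 8 of 23 rose and 1 fell, beside 29.7% of all genes called in either direction. IRF1 was at 2.26 ± 0.36 (adjusted p = 0.00012), PIAS1 at 0.67 ± 0.13 (adjusted p = 0.000281) and MAVS at 0.72 ± 0.15 (adjusted p = 0.000728). PIAS1 is a SUMO ligase that restrains the pathway and MAVS relays RNA sensing.

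With cetuximab, 1 of 23 pathway genes was higher and 11 lower than in serum-free FaDu, beside 43.8% of all genes called in either direction, among them IRF2 (log2 fold change -1.33 ± 0.19, adjusted p = 1.84e-06), IL10RB (log2 fold change -1.13 ± 0.21, adjusted p = 9.18e-05), JAK1 (log2 fold change -0.62 ± 0.13, adjusted p = 0.000294) and PIAS1 (log2 fold change -0.59 ± 0.13, adjusted p = 0.000615), and against non-invasive cells RIGI (log2 fold change -1.44 ± 0.36, adjusted p = 0.0108) and the inhibitor SOCS1 (log2 fold change -2.17 ± 0.68, adjusted p = 0.046) fell. SOCS1 missed the threshold in 8 of 14 alternative settings (adjusted p up to 0.187). RIGI and SOCS1 were the 2 of 23 pathway genes called there, near the 8.56% of all genes. EGF alone went with 3 of 23 higher and 10 lower in non-invasive FaDu cells than without EGF, beside 50.0% of all genes called, among them MAVS (log2 fold change -1.0 ± 0.15, adjusted p = 5.84e-06), PIAS1 (log2 fold change -0.70 ± 0.13, adjusted p = 6.97e-05), TLR3 (log2 fold change -2.55 ± 0.48, adjusted p = 7.1e-05) and CGAS (log2 fold change 1.62 ± 0.32, adjusted p = 0.000125). Of these 4 CGAS was the one that rose. In Kyse30, where 21 were tested, 4 rose in non-invasive cells against no EGF, beside 12.9% of all genes called in either direction. Among the 4 were RIGI (log2 fold change 4.08 ± 0.64, adjusted p = 9.41e-05), the kinase IKBKE (log2 fold change 2.48 ± 0.57, adjusted p = 0.00472) and CGAS (log2 fold change 1.51 ± 0.51, adjusted p = 0.0485). CGAS missed the threshold in 11 of 18 alternative settings (adjusted p up to 0.146). With the MEK inhibitor against no EGF, IKBKE (log2 fold change 3.12 ± 0.57, adjusted p = 0.00256), IRF1 (log2 fold change 1.22 ± 0.28, adjusted p = 0.0136) and RIGI (log2 fold change 2.70 ± 0.63, adjusted p = 0.0154) rose, and against cetuximab IRF1, at 544, 503, 692 and 358 CPM with the MEK inhibitor against 242, 142, 117 and 88.6 CPM with cetuximab (log2 fold change 1.83 ± 0.28, adjusted p = 0.000852) did. With cetuximab RIGI (log2 fold change -3.25 ± 0.59, adjusted p = 0.00123) and IRF1 (log2 fold change -1.22 ± 0.28, adjusted p = 0.0102) fell relative to non-invasive Kyse30 cells.

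The genes with and without the response element in the promoter window were set side by side as a description, since neighbours and families share ancestry and position: the 4 IFIT genes lie together on chromosome 10, OAS1, OAS2 and OAS3 on chromosome 12, and IFITM1, IFITM2 and IFITM3 on chromosome 11. For MEK inhibitor against cetuximab in FaDu the median log2 fold change was 1.8 over the 18 genes with the element and 1.91 over the 15 without, and 17 and 13 of them rose. For MEK inhibitor against no EGF in FaDu the medians were 1.28 and 0.19, with 11 and 4 genes higher. In non-invasive FaDu cells against no EGF they were -0.01 and -0.61. In FaDu invasive against non-invasive cells they were -1.18 with the element and -1.52 without. In Kyse30, over 17 genes with and 15 without, non-invasive cells against no EGF gave 2.03 and 0.45 with 8 and 3 genes higher, and MEK inhibitor against no EGF gave 2.30 and 1.09 with 9 and 1 higher. The 7 tested Kyse30 genes whose promoters were not available had medians of 2.80 and 2.73 in these comparisons, above those of the genes with the element. Of the 8 genes whose elements are printed above, IFIT1, IFIT3, IFI6, IFI27 and IFITM3 rose with the MEK inhibitor over no EGF in both lines, ISG15 and PARP14 rose in FaDu and BST2 rose in Kyse30. Of the 7 named above as without the element, OAS1, PARP9 and DTX3L rose in FaDu, while UBE2L6, SAMD9L, STAT2 and MX1 did not pass there, and none passed in Kyse30. SAMD9, with the element, fell in FaDu.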

How the data were processed

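RNA was measured by 3′ sequencing (Lexogen QuantSeq, which reads the ends of polyadenylated transcripts) in 40 libraries. The deposited table holds raw whole-number counts of reads by gene. STAR and HTSeq on GRCh38 made it, per the submitters' processing notes; no source used here gives their versions, the annotation or the strand setting. No label names molecular identifiers, so intervals and floors cover counting error only. Column names matched sample descriptions, 0 columns were unmatched, and groups came from the titles. Whether replicates were separate cultures is not stated, so the spread behind each p-value may be technical. Every replicate pair differed by more than sampling noise (chi-square per degree of freedom 2.39 to 63.6).

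Tests used edgeR 4.0.16 in R 4.3.3: TMM normalization, the default expression filter with a minimum count of 10, and the quasi-likelihood F test over the 20 libraries of a line, with Benjamini-Hochberg adjustment over 12131 genes in FaDu and 11976 in Kyse30, and over all 40 libraries and 12652 genes for differences between lines. "Called" means an adjusted p under 0.05. CPM are counts scaled with TMM factors. Fold changes are log2 with their standard errors. Each standard error was derived as the absolute log2 fold change divided by the square root of its F statistic, so it is approximate. Where a group had 0 counts the fold is a bound against 3 counts over the group, and with 1 to 3 counts a ratio with its 95% counting interval. A self-check on simulated counts covered MEK inhibitor against cetuximab in the fit of each line. The joint fit of both lines was not simulated. Alternatives were RLE scaling, no filter, a minimum count of 30, DESeq2 1.42.0, voom in limma 3.58.1, the replicate number as a block, fits of the 2 groups alone, and libraries left out. The 28 other pathway genes are ligands, receptor chains, kinases and transcription factors, nucleic acid sensors and inhibitors; the values of 1 of them are not reported here.

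Genes to name were a panel over the roles, up to 5 called members in each direction per comparison by adjusted p, members at 0 in a whole group, and up to 4 called pathway genes. Not every gene so picked is named in each comparison, so the naming is not complete. Others were chosen after their values were seen. Members and lists were chosen with earlier results of these data known. Replicate numbers did not pair the libraries: correlations of same-numbered deviations ran from -0.291 to 0.418 in FaDu and -0.157 to 0.441 in Kyse30.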

Additional observations from a re-analysis of the deposited data

Results flagged for a closer look

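Within groups of 4 libraries, 182 gene and group combinations were examined for a highest or lowest library far from the other 3 by Dixon's test, and 29 were found. Chance gives about 1 in 20 such groups. Many fell in replicate 1 of the Kyse30 non-invasive cells, where the summed level was 9686 CPM, IFI27 30.5 CPM, IFI6 218 CPM, PARP14 474 CPM, ISG15 638 CPM, OAS1 304.5 CPM, IFI44L 89.7 CPM, BST2 39.6 CPM, IFIT1 224 CPM, EIF2AK2 447 CPM, IFIT3 784 CPM and USP18 17.3 CPM. These 12 belong to 1 library, so they are not separate events.

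Other single libraries in Kyse30 were invasive replicate 1 with 339 CPM of IFI6, invasive replicate 4 with 190.3 CPM of ISG15, cetuximab replicate 2 with 0.460 CPM of IFITM1, cetuximab replicate 4 with 3.76 CPM of IRF9, serum-free replicate 2 with 0.964 CPM of IFI27, and serum-free replicate 1 with 6.59 CPM of BST2, 0.366 CPM of IFIT1 and 4.03 CPM of MX1. Several of these rest on a few counts beside libraries at 0. In FaDu they were invasive replicate 3 with 2.44 CPM of MX1, MEK inhibitor replicate 2 with 20.8 CPM of OAS1, cetuximab replicate 3 with 0 CPM of IFI44L, non-invasive replicate 3 with 150.7 CPM of ADAR, non-invasive replicate 1 with 6.95 CPM of IFITM1, serum-free replicate 2 with 16.2 CPM of BST2 and 27.9 CPM of MX1, and serum-free replicate 1 with 135.6 CPM of EIF2AK2 and 20.4 CPM of IFIT3.

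Changes that differed between the lines in the joint fit are the Kyse30 minus the FaDu log2 fold change. For EGF non-invasive cells against serum-free spheroids they were 3.95 for BST2, 9.42 for IFI44L, 9.79 for IFIT1, 5.48 for IFIT3, 6.04 for IFITM1, 2.45 for ISG15, 2.48 for PARP14 and 1.18 for STAT2. For cetuximab against serum-free spheroids they were 6.10 for IFIT1, 2.92 for IFIT3, 4.57 for MX1 and 1.32 for STAT2. The values of IFI44L, IFIT1 and IFITM1 depend on the prior count, since serum-free Kyse30 held 0 or 1 count of each. In the first comparison, of 13 alternative settings STAT2 missed the threshold in 8, IFI44L and IFITM1 in 7, ISG15 in 6 and BST2 in 5. IFIT1, IFIT3 and PARP14 passed in all 13. For cetuximab, of 12 settings IFIT3 missed it in 5, MX1 in 4 and IFIT1 and STAT2 in 3.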

How the results depend on the processing

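Counts are of called members. In this paragraph and the next, the percentage in brackets is the share of all genes called in the same fit. Under limma-voom the FaDu invasive comparison with non-invasive cells gave 11 (2.27%) instead of 17. Kyse30 non-invasive against serum-free gave 8 (13.3%) instead of 14, and cetuximab against non-invasive 2 (6.13%) instead of 9. DESeq2 gave in Kyse30 1 (9.48%) for MEK inhibitor against non-invasive and 1 (9.16%) for cetuximab against serum-free. It gave 17 (9.32%) for MEK inhibitor against serum-free and 11 (2.61%) for MEK inhibitor against cetuximab. For the differences between lines with cetuximab and MEK inhibitor against serum-free it gave 13 (18.2%) and 2 (4.17%). A minimum count of 30 gave 2 (1.34%) for MEK inhibitor against cetuximab in Kyse30. Fits of the 2 groups alone gave in Kyse30 5 of 31 tested (21.7%) for non-invasive against serum-free. They gave 4 of 34 (12.9%) for cetuximab against non-invasive and 3 of 29 (11.1%) for cetuximab against serum-free. In these 3 fits the members' share was not above that of all genes. The same fits gave 24 of 35 (17.6%) for MEK inhibitor against serum-free and 20 of 36 (5.25%) for MEK inhibitor against cetuximab. Without the library of 463124 counts Kyse30 gave 1 (14.4%) for MEK inhibitor against non-invasive and 1 (15.1%) for cetuximab against serum-free. It gave 19 (15.4%) for MEK inhibitor against serum-free and 10 (4.66%) for MEK inhibitor against cetuximab. Differences between lines came to 10 (21.4%) for cetuximab and 1 (4.81%) for MEK inhibitor against serum-free. Without both non-invasive Kyse30 libraries high in MALAT1 there were 5 (6.71%) for non-invasive against serum-free and 3 (1.72%) for cetuximab against non-invasive. There were 8 (10.4%) for the difference between lines in the first, and IFI44L turned to 0.21 for cetuximab against non-invasive. The cause was not tested.

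Added after seeing the data, leaving non-invasive replicate 1 out of the shared Kyse30 fit gave 2 (3.34%) for cetuximab against serum-free. It gave 17 (3.92%) for MEK inhibitor against serum-free and 15 (1.36%) for MEK inhibitor against cetuximab. Leaving out that library and the one of 463124 counts gave 9 (8 higher, 1 lower, 27.1%) for non-invasive against serum-free. It gave 5 (12.9%) for cetuximab and 19 (13.6%) for MEK inhibitor against non-invasive. Against serum-free it gave 4 (16.4%) for cetuximab and 27 (16.4%) for MEK inhibitor, and 26 (5.48%) for MEK inhibitor against cetuximab. Differences between lines came to 12 (22.5%) for non-invasive against serum-free and 6 (0.585%) for invasive against non-invasive. They came to 15 (22.2%) for cetuximab and 6 (5.24%) for MEK inhibitor against serum-free.

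The brackets in this paragraph hold the lowest and highest share of all genes called in the same fits. Leaving out 1 library at a time gave, in FaDu, 15 to 18 (44.6% to 46.4%) for non-invasive against serum-free. It gave 10 to 16 (1.71% to 2.71%) for invasive against non-invasive. Against non-invasive it gave 5 to 12 (4.99% to 11%) for cetuximab and 20 to 26 (23.7% to 29.1%) for MEK inhibitor. Against serum-free it gave 23 to 28 (38.2% to 42.8%) for cetuximab and 16 to 20 (14.3% to 20.9%) for MEK inhibitor. It gave 34 to 35 (16.1% to 20%) for MEK inhibitor against cetuximab. In Kyse30, in the same order, it gave 8 to 16 (8.53% to 11.1%), 0 to 1 (0.0581% to 2.1%), 3 to 11 (2.62% to 4.12%) and 0 to 6 (2.36% to 3.86%). Then came 0 to 0 (1.46% to 2.57%), 3 to 11 (1.57% to 3.16%) and 0 to 5 (0.34% to 0.821%). For the differences between lines, all libraries of 1 replicate number were left out at a time. These fits gave 11 to 13 (6.54% to 20.6%) for non-invasive against serum-free and 0 to 2 (0% to 0.427%) for invasive against non-invasive. They gave 0 to 9 (3.96% to 14.8%) for cetuximab and 0 to 4 (0.308% to 3.85%) for MEK inhibitor against serum-free. For the lines without EGF they gave 12 to 23 (31.8% to 48.7%).

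With the replicate block, FaDu gave 18, 15, 12, 24, 27, 18 and 36 calls in the same order of comparisons, Kyse30 gave 11, 0, 6, 0, 0, 10 and 6, and 15, 0, 5 and 0 for the differences between lines, each within 1.5 times the unblocked count. Of all genes these fits called, in FaDu, 49.3%, 2.89%, 8.25%, 29%, 43%, 19% and 19.1%. In Kyse30 the shares were 10.8%, 0.2%, 4.04%, 4.08%, 2.61%, 3.36% and 0.969%. For the differences between lines they were 14.3%, 0.198%, 10.6% and 1.57%. The replicate numbers did not pair the libraries. Of 2969 values of named genes under alternatives, 2625 kept their direction and side of the threshold, 343 kept the direction but missed the threshold, and 1 changed sign. Depth limits the first invasive Kyse30 replicate, where 27 of 42 members had a count.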

Other observations

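TRIM21, an antibody receptor and ubiquitin ligase of the cytosol, and PARP10, a mono-ADP-ribosyl transferase, passed in no comparison within either line. TRIM21 averaged 4.63 ± 3.85 CPM in invasive cells, 8 ± 1.44 CPM with the MEK inhibitor, 4.39 ± 1.96 CPM with cetuximab, 6.52 ± 1.95 CPM in non-invasive cells and 8.24 ± 3.4 CPM without EGF in FaDu (SD, n = 4 each). Every MEK inhibitor library was above every cetuximab library, and every other pair of groups overlapped.

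BST2 in FaDu had 0, 0.673, 0 and 1.2 CPM in invasive cells, 10.2, 27.9, 23.1 and 25.5 CPM with the MEK inhibitor, 2.23, 2.52, 0.402 and 1.2 CPM with cetuximab, 6.27, 0.233, 5.8 and 5.08 CPM in non-invasive cells and 8.17, 16.2, 8.79 and 7.31 CPM without EGF. Invasive cells held 0 to 1.20 CPM, and it fell relative to non-invasive cells (log2 fold change -3.11 ± 0.80, adjusted p = 0.0314), a call that missed the threshold in 8 of 14 alternative settings (adjusted p up to 0.243). HERC6, a ubiquitin ligase of the HERC family, fell in invasive relative to non-invasive cells (log2 fold change -1.84 ± 0.34, adjusted p = 0.00178), with 3.83, 1.01, 2.75 and 2.87 CPM in invasive cells against 8.52, 6.75, 12.9 and 10.6 CPM in non-invasive cells. Neither was tested for dependence on how cells were sorted.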
